A study of Mus musculus with 2 samples.

Results

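The 382 tiled regions described here were those in which DNA precipitated by an antibody against 5-methylcytosine was over-represented relative to input DNA on both arrays of a fibroblast study. They were 1.94% of the 19703 autosomal regions that could be scored, out of 21179 tiled on the autosomes. Probes were joined into a region while each began within 1000 bp of the one before. It was scored when at least 4 of its probes had an input signal well above background on both arrays, and such probes are called kept probes below. It was called enriched when the median log2 ratio of precipitate to input over its kept probes, with each array centred on its median, was at least 0.6 on each array, a 1.52-fold excess over the typical probe. These ratios chose the regions, so they are given as a description and support nothing by themselves.

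The untreated array carried DNA of mouse embryonic fibroblasts (MEFs), connective tissue cells grown from C57BL/6 embryos of stage E14.5. The other carried DNA of C57BL/6 MEFs of the same stage that had been given 100 µM thymidine, the deoxynucleoside of thymine, for 2 days. In both cases magnetic beads had removed cells with c-Kit, CD31, CD41 or CD45 on their surface, proteins found on blood progenitors and endothelial cells among others, and the remaining cells grew on MEF feeders arrested with mitomycin. The labels do not say whether feeder DNA was excluded. For the treated sample, the source label also names a sort by CD45, and its input is called MEFs in one label and thymidine-treated in another. Precipitate was labelled with Cy5 and input with Cy3 on both arrays, so dye bias was not balanced. Each group had 1 array, so array and treatment cannot be told apart, no test was possible, and every difference below is between these 2 hybridisations. Arrays of DNA hold no RNA, and the labelled cell type could not be checked against markers.

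In mammals 5-methylcytosine lies mainly at CpG dinucleotides. Most CpGs outside of CpG islands are methylated in differentiated cells, whereas islands at active or poised promoters are usually free of the mark. Methylated DNA immunoprecipitation (MeDIP) pulls down fragments, here sheared to 200 to 1000 bp, in rising proportion to the number of methylated CpGs they hold. Strong precipitation therefore needs both methylation and CpGs, and its absence does not show that a sequence is unmethylated. The array ratio also moved with probe length, as given below, and dye bias was not balanced. A high ratio alone thus does not show that a region is methylated. The files give positions in the mm9 build of the mouse genome and name no genes. Probe sequences and a genome of that build were not used here, so regions are named by chromosome and position, and their gene context and sequence are not analysed here.

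The enriched regions resembled other scored regions in size. They spanned 666 to 3931 bp, with a median of 1622 bp against 1652 bp over all scored regions. They held 2874 probes of 45 to 60 bases, of which 2316 (80.6%) were kept, against 84.1% over all scored regions. The median number of kept probes was 6, with a range of 4 to 10, against a median of 7. All 382 had passed the filter on dim probes by definition.

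Ratios of the enriched regions lay close to the threshold that chose them. Their median was 0.72 on the untreated array (0.60 to 1.50; 1.65-fold) and 0.76 on the thymidine array (0.60 to 1.30; 1.69-fold), where the median scored region was at 0.01 on each. The mean of both arrays was below 0.7 in 131 regions and below 0.8 in 252. It lay from 0.8 to below 1 in 113 regions, and reached 1 in 17. Only 8 regions were above 1 on each array. The upper end was short beside the lower end: over all scored regions ratios ran from -4.39 to 1.50 on the untreated array and from -4.34 to 1.30 on the thymidine array.

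**Figure D1:**
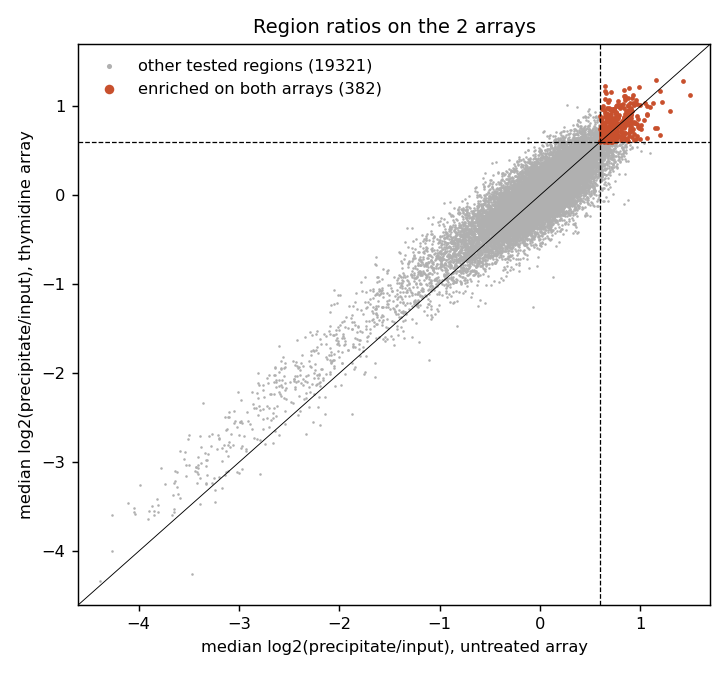
Median log2 ratio of precipitate to input of each scored region on the untreated array (x axis) and on the thymidine array (y axis), each point a region, with the threshold of 0.6 as dashed lines and equality as a solid line. The 382 enriched regions, in colour, form the upper right corner of a single continuous cloud and reach 1.50 and 1.30, while the low end reaches -4.39 and -4.34.

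Many of the regions that passed the threshold did so on 1 array alone. Of 19703 scored regions, 739 reached 0.6 on the untreated array and 755 on the thymidine array. The 382 shared regions, 1.94% of all scored, were thus 51.7% of the first list and 50.6% of the second. Just inside the threshold lay chr2:131775297-131777209 (0.60 untreated, 0.60 thymidine), chr9:65477102-65478842 (0.60 and 0.61) and chr17:29404435-29406111 (0.61 and 0.61). Just outside lay chr3:108012955-108014659 (0.64 and 0.60, the latter just under the threshold before rounding), chr4:124538931-124540460 (0.72 and 0.60) and chr9:22063852-22065604 (0.60 and 0.64). Values on either side of the threshold overlapped, so membership near it is a matter of hundredths.

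The precipitate of the enriched regions was brighter than elsewhere, and their input was not dimmer. Each region was given the median signal of its kept probes. The median of these over the enriched regions was, for the precipitate, 1451 intensity units on the untreated array and 1647 on the thymidine array. That was 1.86 and 1.96 times the median over all scored regions. The median input signal of the enriched regions, taken in the same way, was 815 and 938 units, 1.09 and 1.18 times that of all scored regions. A cut on the ratio of precipitate to input favours a bright precipitate, so these signals are not independent of the rule. Precipitate was well above background at 94.6% of the kept probes on the untreated and 94.3% on the thymidine array, against 85.3% and 84.1% over all scored regions. In 251 of the 382 regions every kept probe had a precipitate signal well above background on both arrays. The same count over all scored regions is not given here.

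Within a region the probes were uneven. On the untreated array 61.8% of the kept probes were at 0.6 or above and 19.3% were below 0. The thymidine array had 61.9% and 18.9%. The SD over the probes of a region had a median of 0.72 on the untreated and 0.71 on the thymidine array, about the size of the region's own ratio. All scored regions had 0.77 and 0.70, so this unevenness was not particular to the enriched regions. At least 1 kept probe was below 0 on both arrays in 263 enriched regions, and in 60 every kept probe was above 0 on both. The same counts over all scored regions are not given here. A median over 4 to 10 probes is thus what qualified these regions, rather than a uniformly high stretch.

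Runs of adjacent high probes were short. Counting neighbouring kept probes at 0.6 or above on both arrays, the longest run was 1 probe in 43 regions, 2 probes in 182, 3 in 118, 4 in 31 and 5 in 8. No run was longer than 5. Over all scored regions a run of at least 3 occurred in 384, or 1.95%, and 157 of these were enriched regions, which the rule itself favours. The run of 5 with the narrowest spread was in chr9:88376751-88378351, where 6 of 7 probes were kept and ranged from 0.46 to 1.05 on the untreated and from 0.64 to 1.02 on the thymidine array, with medians of 0.97 and 0.90. This region was chosen after its values were seen.

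The highest mean ratio belonged to chr2:157029786-157031529, at 1.42 on the untreated and 1.28 on the thymidine array. Its 7 kept probes, in chromosomal order, read -0.56, 1.77, 1.58, 1.91, 1.42, 0.60 and -0.52 on the untreated array. The same probes read -0.44, 1.42, 1.59, 1.81, 1.28, 0.52 and -0.41 on the thymidine array. A block of high probes was thus flanked by a low probe at either end, at the same places on both arrays, and the difference between arrays at a probe (thymidine minus untreated) had a median of -0.08 with an SD of 0.16. With its 2 dim probes included, its median fell to 0.68 and 0.58, so it no longer qualified.

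A step rather than a block was seen in chr2:172949093-172950403, the next by mean ratio (1.50 and 1.12). Its first 3 kept probes by position read between 1.50 and 1.71 on the untreated and between 1.12 and 1.36 on the thymidine array. The remaining 2 were below 0.2 on both arrays, and the last read -0.81 and -0.47. With its 2 dim probes included, the median of this region was 0.07 on the untreated and 0.20 on the thymidine array, so it too no longer qualified.

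The region chr14:56108631-56110362 kept all 9 of its probes, with medians of 1.16 and 1.30. High and low probes alternated along it: on the untreated array the probes read 1.16, -0.10, 1.38, 1.18, -0.23, 0.42, 1.22, 0.51 and 1.66. On the thymidine array they read 1.42, -0.09, 1.38, 1.30, -0.36, 0.76, 1.61, 0.36 and 1.87. The low probes were the same on both arrays.

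High values throughout were seen in chr11:59652804-59654368 (1.19 and 1.17) and chr17:10512600-10513352 (1.22 and 1.05). In the first, 5 of 8 probes were kept and ranged from 0.42 to 1.54 on the untreated and from 0.63 to 2.01 on the thymidine array. The second is short, at 753 bp, and all 4 of its probes were kept. They read 0.81, 1.93, 1.59 and 0.85 on the untreated array and 0.61, 1.75, 1.49 and 0.54 on the thymidine array, so every probe was lower on the thymidine array, with a median difference of -0.19.

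By contrast chr5:15439214-15440783 (1.30 and 0.94) held a probe at -1.50 on the untreated and -0.52 on the thymidine array between probes above 0.9. The other regions among the 12 with the highest mean ratio were chr4:135410728-135412385 (0.99 and 1.22), chr7:34981263-34982835 (1.13 and 1.04), chr10:62408477-62410043 (1.1 and 0.99), chr17:35338457-35340122 (0.89 and 1.20), chr1:36770094-36771840 (1.05 and 1.04) and chr11:94071569-94073084 (1.07 and 1.0). These held between 4 and 7 kept probes. In 5 of these 6, at least 1 probe lay below -0.3 on both arrays, and chr7:34981263-34982835 was the exception, with probes from 0.47 to 1.75 on the untreated and from 0.73 to 1.39 on the thymidine array.

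**Figure D2:**
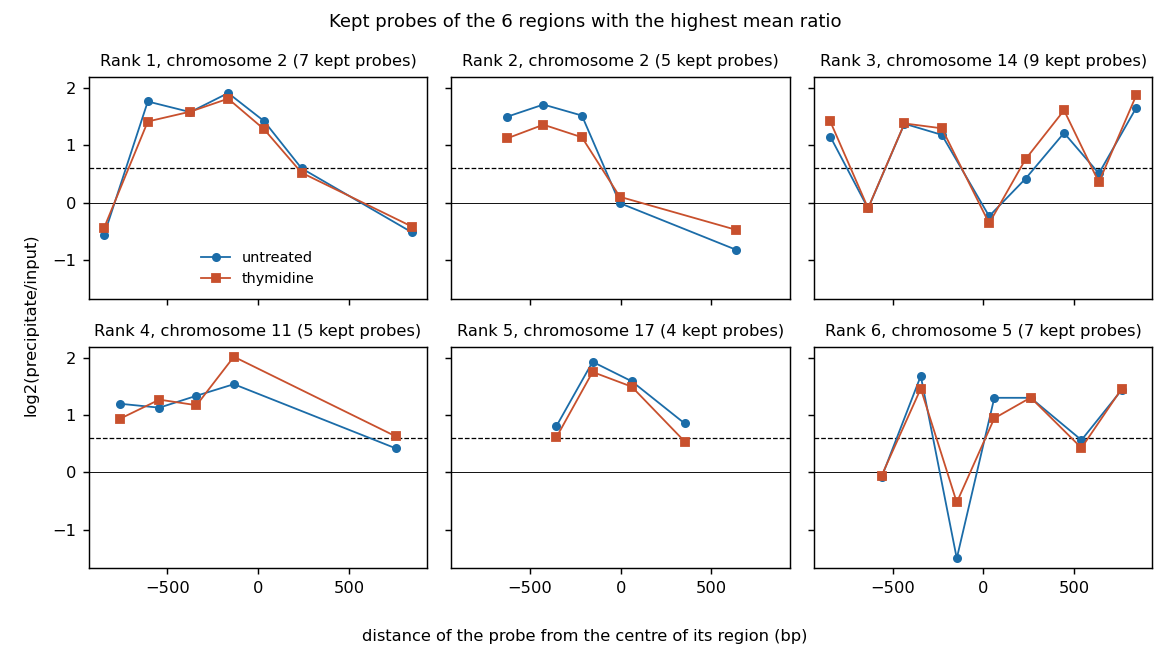
Log2 ratio of precipitate to input (y axis) at each kept probe against its distance in bp from the centre of its region (x axis), for the 6 regions with the highest mean ratio, with the untreated array as circles, the thymidine array as squares and the threshold of 0.6 dashed. The arrays trace nearly the same shape in each region, whether a block of high probes (rank 1, -0.56 to 1.91 on the untreated array), a step (rank 2) or alternating probes (rank 3).

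Few regions were high at every probe. Every kept probe reached 0.6 on both arrays in 2 regions, both chosen here after their values were seen. In chr5:143874214-143874919 all 4 probes were kept, and they ranged from 0.82 to 1.31 on the untreated array and from 0.75 to 1.54 on the thymidine array. In chr14:122932783-122933868, 4 of 6 probes were kept, with ranges of 0.73 to 1.17 and 0.64 to 1.08. Both regions therefore passed on few probes.

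The 3 regions with the most kept probes, 10 each, were chr9:13630882-13632801 (0.87 and 1.0), chr17:56723120-56725054 (0.73 and 0.63) and chr4:126429499-126431883 (0.68 and 0.67). In the last, all 10 kept probes were above 0 on both arrays, from 0.19 to 2.22 on the untreated and from 0.25 to 2.31 on the thymidine array. The chromosome 17 region, in contrast, had a probe at -3.03 on the untreated array.

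Position within a region made little difference. Among the 369 enriched regions no longer than 2200 bp, the median over kept probes in bins of 300 bp from the centre ran from 0.69 to 0.77 on the untreated array and from 0.69 to 0.80 on the thymidine array. In other scored regions the same bins ran from -0.06 to 0.02. No peak was seen at the centre of the tiled stretch over these regions. The same ratios chose the regions whatever the position of the probe, so a raised median in every bin is partly fixed by the rule.

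The rule left out 558 probes of 298 enriched regions because their input was dim on at least 1 array, and these give a reading that the rule did not use. They had median ratios of -0.59 (untreated) and -0.38 (thymidine), against -0.66 and -0.41 for the 24703 such probes of other scored regions. A ratio of at least 0.6 was reached by 13.3% and 10.8% of them, against 13.2% and 7.87% in other regions. Their precipitate was well above background on both arrays at 5.91%, against 3.39%. Dim probes of enriched regions were thus nearly as low as those elsewhere, and a ratio with a dim input is imprecise.

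Neighbouring regions, too, were not used by the rule. Only the next scored region on either side was taken, and a region next to 2 enriched regions was counted for each. Such neighbours less than 10 kb from an enriched region numbered 113. Their median ratios were 0.09 on the untreated and 0.02 on the thymidine array. The like neighbours of any scored region had 0.01 and 0.01. Of these, 2 (1.77%) were enriched themselves, against 2.23% for the neighbours of all regions. For next regions less than 50 kb away the medians were 0.04 and 0.05 over 429 neighbours, of which 12 (2.80%) were enriched, against 2.02%. Enrichment was therefore not shared by the next scored region in most cases.

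Only 10 pairs of enriched regions lay less than 50 kb apart, and 3 pairs less than 20 kb. Some of the 10 had other scored regions between them, so they are not all among the adjacent neighbours counted above. The closest, 9377 bp apart, was chr11:68872111-68873731 (0.78 and 0.80) with chr11:68883108-68884762 (0.83 and 0.84). A second pair on chromosome 12 was chr12:70457674-70459308 (0.99 and 0.63) with chr12:70471837-70473441 (0.89 and 0.70), 12529 bp apart. The third, 16268 bp apart, was chr2:31525125-31526699 (0.78 and 0.78) with chr2:31542967-31544499 (0.78 and 0.80). These pairs were named after their values were seen, and the rule itself places all of their ratios at 0.6 or above.

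Enriched regions lay on all 19 autosomes. Their share of scored regions ran from 1.11% on chromosome 16 (7 of 628) and 1.23% on chromosome 8 (12 of 976) to 2.39% on chromosome 14 (18 of 753) and 2.49% on chromosome 18 (13 of 522), around 1.94% over all. Chromosome 2 held the most, with 36.

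Whether high probes predict other probes of the same region was measured by splitting regions in a way the rule did not use. In 5584 scored regions with at least 4 odd-numbered and 4 even-numbered kept probes, one set was used to choose and the other was read. Choosing on odd-numbered probes gave 181 regions at 0.6 or above on both arrays, with medians of 0.77 and 0.79 over the probes used. The even-numbered probes of the same regions had medians of 0.16 and 0.13, against 0.04 and 0.05 over all split regions. Both even-numbered medians also reached 0.6 in 14 regions (7.73%), against 4.12% over all split regions.

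The reverse choice gave a similar result. Of 230 regions chosen on even-numbered probes (0.75 and 0.77), the odd-numbered probes had medians of 0.12 and 0.10, and 14 regions (6.09%) reached 0.6, against 3.24%. Interleaved probes of a chosen region were above 0 on both arrays in 56.9% and 53.9% of the regions for the 2 directions, against 46.0% and 44.1%. In these split regions most of the excess over the median region was therefore absent from the probes lying between those used to choose. A region needed at least 8 kept probes to be split. Among the enriched regions, 45 had 8 kept probes, 16 had 9 and 4 had 10 or more. Most of the 181 and 230 chosen regions were therefore not enriched regions. The result describes split regions and was not read for the enriched regions as a set. Enriched regions with fewer kept probes, which were the larger part, were not covered.

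At a cut of the same size, low ratios recurred more often in the other probes than high ratios did, but they began further past the cut. Regions at -0.6 or below on both arrays by their odd-numbered probes numbered 395, and their even-numbered probes had medians of -0.56 and -0.42, with 184 (46.6%) at -0.6 or below, against 6.86% over all. In the reverse direction 383 regions had medians of -0.71 and -0.51 in the other probes, and 48.0% were at -0.6 or below, against 7.07%. The probes used to choose low regions had medians of -1.19 and -0.99 for odd-numbered and -1.26 and -1.04 for even-numbered probes. Those of the high choices lay just past 0.6, so the recurrence of low and high ratios is not compared at a like distance from the cut. Across the 5584 regions the odd-numbered and even-numbered medians correlated at r = 0.51 on the untreated and 0.50 on the thymidine array. The points of that correlation are regions of 1 array that share its hybridisation, and it is a description only.

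**Figure D3:**
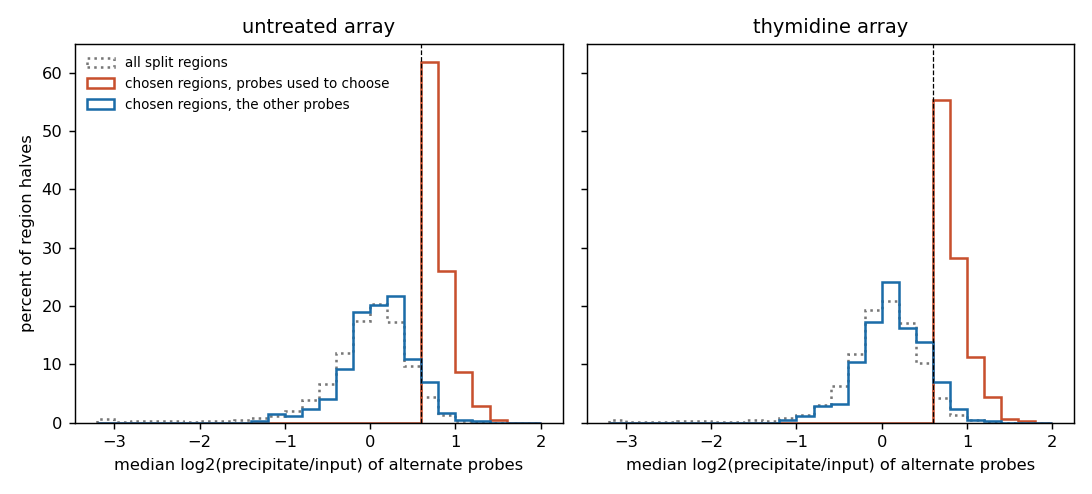
Distribution of the median log2 ratio (x axis) over sets of alternate probes, as percent of region sets (y axis), on the untreated array at left and the thymidine array at right, with both directions of choice pooled and the threshold of 0.6 dashed. The probes used to choose lie at or above 0.6 by construction, whereas the other probes of the same regions, with medians of 0.16 and 0.13 for the choice on odd-numbered probes, largely overlap the dotted distribution of all split regions.

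The share of regions that were enriched fell with the number of kept probes. It was 3.26% of regions with 4 kept probes (62 of 1904), 2.18% with 6 (97 of 4448), 1.39% with 8 (45 of 3233) and 0.360% with 10 or more (4 of 1112). The part that probe number had in which regions passed was not tested.

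Probe length moved with the ratio in the same way on both arrays. Over all scored regions kept probes of 45 bases had median ratios of 0.16 and 0.16, and those of 60 bases -0.58 and -0.52. In the enriched regions 70.7% of the kept probes were of 45 bases, against 58.1% over all, and 13.9% were longer than 50 bases, against 21.7%. Regions with a median probe length of 45 bases were enriched in 2.60% of cases (296 of 11398), and regions with a median over 50 bases in 0.550% (13 of 2363). The 321 kept probes over 50 bases in the enriched regions had medians of 0.55 and 0.55, against -0.44 and -0.37 for such probes in all scored regions, but their values were among those that chose the regions.

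When each array was instead centred separately for each probe length, a setting added after the data were seen, 377 regions were enriched and 194 of the 382 (50.8%) were among them. Under that centring the split into alternate probes gave 141 regions by odd-numbered and 168 by even-numbered probes, and the other probes had medians of 0.14 and 0.10 in the first case and 0.05 and 0.08 in the second. What sets the probe length was not given in the sources used here, and the part of probe length or base composition in the high ratios was not tested.

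**Figure D4:**
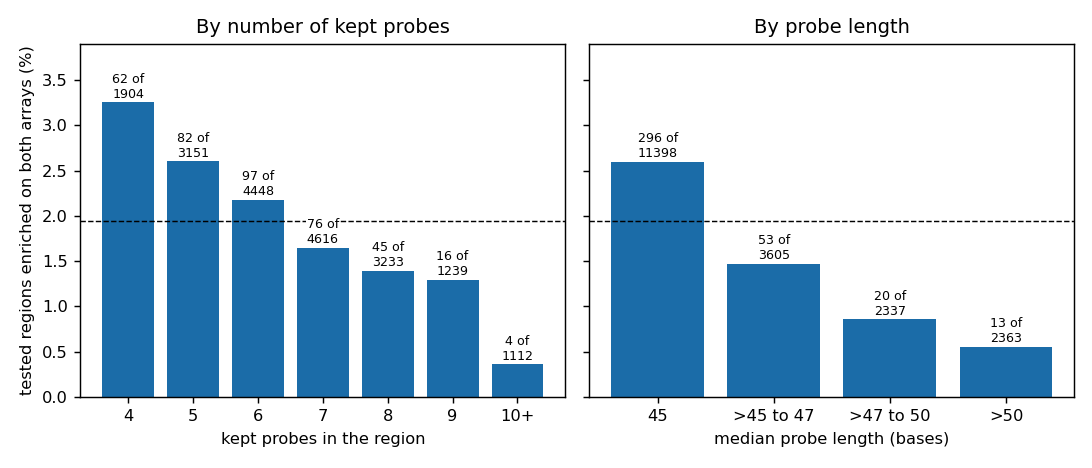
Percent of scored regions enriched on both arrays (y axis, bars from 0, with the counts above each bar) by number of kept probes at left and by median probe length in bases at right, with the share over all regions, 1.94%, dashed. The share falls from 3.26% at 4 kept probes to 0.360% at 10 or more, and from 2.60% at 45 bases to 0.550% above 50 bases.

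Input brightness showed a weaker gradient. With the scored regions ordered by input signal and cut into 5 classes of equal size, 1.42% of the dimmest class (56 regions) and 2.49% of the brightest (98 regions) were enriched.

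The enriched regions differed little between the arrays. The difference, thymidine minus untreated, was the median over a region's kept probes of the difference of centred log2 ratios. Its median over the 382 regions was 0.05, with an SD of 0.14 over regions and a range of -0.41 to 0.50. All scored regions had a median of 0.06 and an SD of 0.17. A positive difference was seen in 250 enriched regions (65.4%), against 65.5% of all scored regions. The scanner software's own error for the difference at a probe had a median of 0.34, and spots of the same control probe (21 probes, 453 spots) differed with a median SD of 0.16 in the difference. Having to pass 0.6 on both arrays also limits how far these regions can differ, so the narrower spread is partly fixed by the rule.

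To be counted as higher or lower, a region needed a difference of 0.5 or more in either direction with 80% or more of its kept probes of that sign. By this rule 1 enriched region was higher and 0 were lower, where 0.604% of all scored regions were higher (119) and 0.0355% lower (7). That split over all regions depended on the scaling, with 8 higher and 23 lower after quantile normalisation of the arrays' ratios, 1 and 2 after normexp background correction, and 3 and 10 in the authors' deposited table.

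At the smaller size of 0.25, with no rule on probe signs, 21 enriched regions (5.50%) were higher, against 12.9% of all scored regions, and 8 (2.09%) were lower, against 2.65%. Among 2914 regions with a mean ratio from 0.3 to below 0.6 that missed the threshold on at least 1 array, 8.06% were higher and 2.92% lower by that size. The share that was higher thus lay below that of both comparison sets, within the limit that the rule sets, and the share that was lower lay near both.

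**Figure D5:**
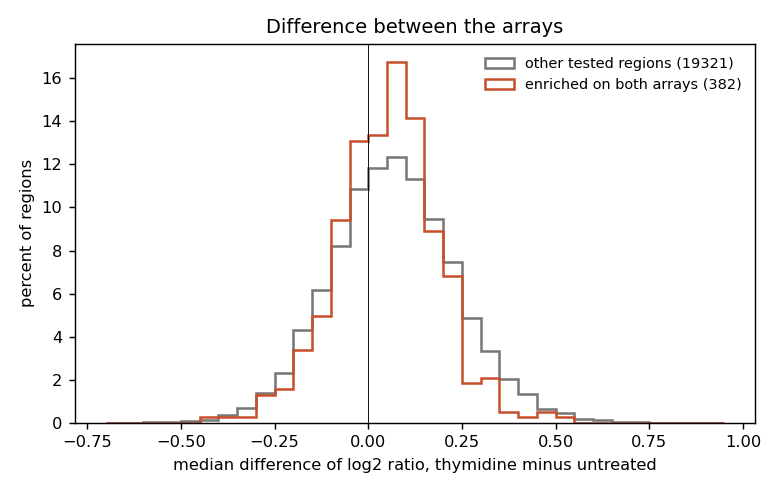
Distribution over regions of the median difference in log2 ratio, thymidine minus untreated (x axis), as percent of regions (y axis), for the 382 enriched regions and the other scored regions. Both distributions centre slightly above 0, at 0.05 for the enriched and 0.06 over all scored regions, and the enriched regions spread less, with an SD of 0.14 against 0.17.

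The single region counted as higher was chr12:77633277-77634860, with 5 of 8 probes kept and medians of 0.63 on the untreated and 0.81 on the thymidine array. Its probes read 0.66, -1.83, 0.90, 0.63 and 0.05 on the untreated array and 1.17, -0.85, 0.53, 0.98 and 0.81 on the thymidine array. The median difference was 0.50 with an SD of 0.51 over probes, 4 of 5 probes were higher, and the lowest probe moved most. On the log2 scale, with each channel centred on its array median, its precipitate difference was 0.21 and its input difference -0.27. The difference was 0.32 after normexp background correction, and 0.38 in the authors' deposited table, so it was counted by a narrow margin.

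The other 5 regions with the highest difference were chr9:62188046-62189597 (0.61 to 0.84, difference 0.48), chr19:7291693-7292366 (0.85 to 1.12, difference 0.45), chr4:149654924-149656418 (0.80 to 1.0, difference 0.43), chr7:69608941-69610547 (0.63 to 1.01, difference 0.38) and chr11:95573573-95575216 (0.62 to 0.97, difference 0.35). Every kept probe was higher on the thymidine array in the chromosome 19 region (4 of 4) and in the chromosome 4 region (5 of 5). In the chromosome 9 region 6 of 8 probes were higher, and 4 of them by more than 0.7. The input was lower on the thymidine array in all 6 regions with the highest difference, with input differences from -0.30 to -0.13. The precipitate was higher in 5 of them, by 0.05 to 0.21. Ranking by the difference favours a lower input and a higher precipitate, so this pattern is partly fixed by the choice.

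The regions with the lowest difference mirrored this in the input, but not in every precipitate. They were chr7:82992051-82993692 (1.17 to 0.75, difference -0.41), chr2:172949093-172950403 (1.50 to 1.12, difference -0.35), chr10:127690079-127691585 (0.94 to 0.62, difference -0.32), chr2:90621683-90623381 (1.15 to 0.75, difference -0.30), chr12:70457674-70459308 (0.99 to 0.63, difference -0.28) and chr18:44538867-44540537 (0.95 to 0.82, difference -0.27). Every kept probe was lower on the thymidine array in the regions chr7:82992051-82993692, chr10:127690079-127691585 and chr2:90621683-90623381. In chr10:127690079-127691585 the probes read 0.65, 0.14, 1.53 and 1.22 on the untreated array and 0.18, -0.14, 1.17 and 1.06 on the thymidine array.

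In all 6 the input was brighter on the thymidine array, by 0.22 to 0.45. In chr10:127690079-127691585 the median precipitate difference was 0.00 and the median input difference 0.45. At its last probe, though, the precipitate difference was -0.17 and the input difference 0.06. Precipitate differences over the 6 ran from -0.16 to 0.14, the highest in chr18:44538867-44540537. Here too the ranking by difference favours such an input. With dim probes included, 3 of the 6 fell below 0.6 on the thymidine array, to 0.20 in chr2:172949093-172950403, 0.23 in chr10:127690079-127691585 and 0.14 in chr2:90621683-90623381. Without that filter the difference of chr7:82992051-82993692 was -0.08 and that of chr2:172949093-172950403 was 0.08, so these values rested on which probes were kept.

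Across ways of processing, a small set of regions stayed enriched. With 9 settings of values, filter and summary, 18 of the 382 regions were enriched under every one, and 43 were when the settings with the fewest enriched regions were left aside, namely normexp background correction with 45 and the authors' deposited table with 124. Among the 18 were 8 of the 12 regions with the highest mean ratio, namely chr14:56108631-56110362, chr11:59652804-59654368, chr17:10512600-10513352, chr5:15439214-15440783, chr4:135410728-135412385, chr7:34981263-34982835, chr1:36770094-36771840 and chr11:94071569-94073084. The region chr5:143874214-143874919, with every probe above the threshold, was also among them, as were chr9:88376751-88378351 and chr5:138086444-138088204 (8 of 8 probes kept; 0.97 and 1.03), the last chosen after its values were seen. The top region by mean ratio was not.

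In the authors' deposited table of log ratios the enriched regions had medians of 0.57 on the untreated and 0.50 on the thymidine array, where all scored regions had 0.01 and -0.05. All 382 were above 0 on both arrays in that table, and 83 reached 0.6 on both. The regions were chosen on ratios that correlate closely with this table, so high values there follow largely from the choice. The same counts over all scored regions are not given for these uncentred values. These values were not centred here. Centred like the other settings, the table had 100 of the 382 at 0.6 or above on both arrays, where 124 of 19703 scored regions (0.629%) were. Its slopes on the scanner log2 ratio were 0.50 and 0.53, so 0.6 is a stricter cut there. These values come from the same hybridisations, so they are another processing and not a repeat.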

How the data were processed

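The 2 arrays were MeDIP tiling arrays of untreated and thymidine-treated MEFs. Per the file headers, Agilent Feature Extraction 11.0.1.1 read the spots, the grid is that of mm9, and the deposited intensity values are processed signals (background subtracted, dyes scaled linearly) beside raw median signals. The authors' scanner files also hold deposited log10 ratios of the channels, which matched those of the processed signals to 1e-05 for 97.5% of untreated and 97.0% of thymidine probes. The authors' deposited table holds log ratios taken here as log2 values, with log base, normalisation and smoothing unstated. Its columns had medians of -0.02 and -0.02, and it ran in the same direction as the scanner log2 ratios (r = 0.90 and 0.87 across probes, slopes 0.50 and 0.53), so its scale stays uncertain.

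From the intensities, log2(Cy5/Cy3) was computed and centred on each array's median over kept probes, with no loess or quantile step (Python 3.11.15, numpy 2.4.6, pandas 2.3.3). Of 180465 spots, 5827 control spots were left out, and so were probes off the autosomes. Of 167117 autosomal probes, 136994 (82.0%) had input well above background on both arrays and were kept. The number of arrays, 1 a group, limits the precision, and no p-value was computed. The region rule was run on simulated data as a check of the code only. The simulated spread between probes was narrower than in these arrays, so that run does not show how the rule performs on them. Alternatives were normexp background correction with an offset of 50 and loess (limma 3.58.1, R 4.3.3), quantile normalisation, other filters, gaps, thresholds and probe minimums, the mean over probes and the authors' table. Normexp ran on median signals, where mean signals had been planned.

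Named regions are the 12 of highest mean ratio, 6 at either end of the ranking by difference, 3 just inside and 3 just outside the threshold, and the 3 with the most kept probes. Any other region in the text was chosen after its values were seen. The members and lists were chosen with earlier results of these data known. The planned gene lists and the base composition were not analysed here, since the gene table given, GRCm38.p6, does not share the files' build.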

Additional observations from a re-analysis of the deposited data

How the results depend on the processing

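Of the 382 regions, all came from 1 processing, and their number moved with it. Normexp background correction left 45 enriched regions, 45 of them among the 382, requiring both channels well above background left 237 (157 among the 382), and the authors' deposited table gave 124 (100 among the 382). A threshold of 0.5 gave 768, a threshold of 0.8 gave 71, and a minimum of 6 kept probes gave 238. Under loess, quantile normalisation, no filter on dim probes, outlier flags left out, gaps of 500 and 2000 bp, a minimum of 3 probes, the mean over probes and centring per probe length, the number ran from 261 to 416. The regions were not always the same: 162 of the 382 remained under loess, 163 with the mean and 210 with no filter. Of enriched regions past the size rule for the difference, there was 1, and there were 0 under normexp, quantile normalisation, no filter, both channels well above background, the authors' table, the mean over probes, a minimum of 6 probes, a threshold of 0.8 and centring per probe length. Under loess it was 1 region, lower and not higher. The cause was not tested, except that stricter thresholds and minimums admit fewer regions by construction. The median difference over enriched regions stayed between 0.00 and 0.05 in every setting. Of 576 values of named regions under alternatives, 21 differences moved by more than 0.16, the SD between spots of a control probe, and 1 mean ratio moved by more than its SD over probes. No mean ratio changed sign, nor did the 1 difference counted by the size rule. Differences not so counted changed sign 26 times, in 11 regions, from -0.35 to 0.08 with no filter in chr2:172949093-172950403 and from sizes of at most 0.14 in the others. No paired analysis was possible because each group has 1 array. The base composition alternative was not run, since no sequence of the build was used.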
